A study of Mus musculus with 7 samples.

Results

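The adult globin genes Hba-a1, Hba-a2, Hbb-bs and Hbb-bt are 4 of the 34932 genes summed in RNA-seq of mouse LT-HSCs, long-term blood stem cells of the marrow, from which every blood lineage can be regrown. They were chosen by name, as the adult alpha and beta globin genes of the reference annotation. The sorted cells came from mice labelled B4galt1 KO (full knockout, genotype 129S1/C57Bl/6, B4-/-; 4 libraries) and B4galt1 WT (genotype 129S1/C57Bl/6; 3 libraries). B4galt1 encodes a galactosyltransferase that extends the sugar chains of glycoproteins. Per the labels, tibia and femur marrow was flushed, its erythrocytes were lysed, and the sort kept Sca-1+ c-Kit+ CD150+ cells that lacked CD48 and lineage markers. An age, a sex and the number of animals behind each library are not given in the sources used here, so every p-value reflects just the spread among these 7 libraries, some of which may be technical.

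Haemoglobin is built from equal numbers of alpha and beta chains, each holding a haem group that carries oxygen. The alpha chains are encoded by Hba-a1 and Hba-a2, which lie in the same gene cluster on chromosome 11. The beta chains are encoded by Hbb-bs and Hbb-bt, which lie side by side in a cluster on chromosome 7. Each cluster is driven by its own distant enhancers, and both are strongly transcribed once an erythroblast matures, under factors such as Gata1, Tal1 and Klf1. Stem cells do not make haemoglobin for oxygen transport.

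Each library held between 23508985 and 34941390 estimated reads, so that 1 read was worth well under 0.1 CPM (counts scaled to a common library total). CPM values here are gene sums of the deposited estimated counts, scaled to a library size adjusted with the TMM method. The targeted gene did not separate the groups. B4galt1 stood at 19.3, 14.9, 14.8 and 14.6 CPM in KO replicates 1 to 4, against 19.2, 24.4 and 11.3 CPM in WT replicates 1 to 3 (log2 fold change -0.20, SE 0.27, edgeR adjusted p = 0.758). The groups overlapped, so the direction of every comparison below rests on the labels. The genes of the positive sort markers, Kit, Ly6a and Slamf1, were present in all libraries, at 67.8 CPM or more. Cd48, the gene of the marker sorted against, was present too and was higher in the libraries labelled KO. KO replicate 1 stood apart in the alpha globins and in the red cell genes Car1 and Ermap. The globin results are given with and without that library.

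The copies within each pair are nearly identical, which limits what can be said of a single gene. The coding sequences of Hba-a1 and Hba-a2, 426 bases long, differed at 1 base, and those of Hbb-bs and Hbb-bt, 441 bases long, differed at 1 base. The stretches around these bases are shown because they are the only places in the coding sequences where a read can tell the copies apart. They come from the GENCODE M21 transcripts, run 5′ to 3′ on the coding strand, and have the differing base in capitals.
Hba-a1: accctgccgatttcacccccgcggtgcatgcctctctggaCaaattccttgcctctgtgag
Hba-a2: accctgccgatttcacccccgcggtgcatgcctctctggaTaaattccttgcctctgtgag
Hbb-bs: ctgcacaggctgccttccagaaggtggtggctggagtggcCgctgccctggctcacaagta
Hbb-bt: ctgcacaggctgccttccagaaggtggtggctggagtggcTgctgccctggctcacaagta
The alpha stretches cover coding bases 341 to 401 and the beta stretches coding bases 377 to 437, counted from 1 at the A of the start codon. The longest identical run was 380 bases in the alpha pair and 416 bases in the beta pair. Reads from outside the coding sequence separate the copies further, but unevenly. Of all 31-base words in the main coding transcript of Hba-a2, 91.0% also occurred in a transcript of Hba-a1, whereas the share was 71.3% for that of Hba-a1. It was 66.9% for Hbb-bs and 59.4% for Hbb-bt. The division of reads within a pair is therefore uncertain, and the alpha sum and the beta sum are the firmer measures.

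The sequence before the start of the alpha genes is shown because both genes were low in the same libraries. The upstream windows of 150 bases for Hba-a1 and Hba-a2, from RefSeq on GRCm38.p6, were identical over all 147 aligned bases, so 1 of them stands for both. It belongs to Hba-a2, at chr11:32296342-32296491 on the plus strand, with 3 motifs in capitals: the CCAAT box (letters CCAAT), the CACC box (letters CACCC) and the TATA box (letters TATAA).
Hba-a2 upstream: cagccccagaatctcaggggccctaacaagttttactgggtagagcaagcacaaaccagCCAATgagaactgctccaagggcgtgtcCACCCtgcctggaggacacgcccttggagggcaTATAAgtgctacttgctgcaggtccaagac
Each of these 3 motifs was searched on both strands, together with GATAA, the core letters bound by Gata1. Among 32851 promoter windows of the same length, 24.5% held CCAAT, 37.4% held CACCC, 14.2% held TATAA and 13.3% held GATAA. The windows of all 4 adult globins held the CCAAT, CACC and TATA motifs, and none held GATAA. The upstream windows of Hbb-bs and Hbb-bt were less alike than those of the alpha genes, with 109 identical bases among 148 aligned, or 73.6%. A match is a description of letters and was not tested as a binding site.

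Alpha globin RNA was lower in every library labelled KO than in every WT library. Hba-a1 (ENSMUSG00000069919, GRCm38 chromosome 11, 32283511 to 32284465, plus strand) had 10.7, 0.222, 0.709 and 0 CPM in KO replicates 1 to 4, against 128, 111 and 46.4 CPM in WT replicates 1 to 3. Hba-a2 (ENSMUSG00000069917, chromosome 11, 32296489 to 32297298, plus strand) had 10.6, 0, 0.351 and 0.054 CPM in KO replicates 1 to 4, against 56.5, 62.4 and 23.9 CPM in WT replicates 1 to 3. For both genes the highest KO library was replicate 1, the other 3 lay below 1 CPM, and the groups did not overlap. A count of 0 reads allowed up to 3 reads, or 0.081 CPM in KO replicate 4 and 0.111 CPM in KO replicate 2. Such floors, like the intervals given below for shares of reads, cover counting error only, as PCR copies were not marked by molecular identifiers.

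The sum of both genes gave the same picture without any division between copies. The alpha sum held 545, 6, 29 and 2 estimated reads in KO replicates 1 to 4, against 5427, 3690 and 1631 in WT replicates 1 to 3. It averaged 5.65 ± 10.4 CPM in libraries labelled KO (SD, n = 4) and 143 ± 62.8 CPM in WT libraries (SD, n = 3). The KO spread came from replicate 1, at 21.3 CPM, beside 0.222, 1.06 and 0.054 CPM in the others, and the WT libraries lay at 184, 173 and 70.3 CPM. In bulk RNA, fewer cells carrying globin RNA and less globin RNA per cell cannot be told apart.

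**Figure D1:**
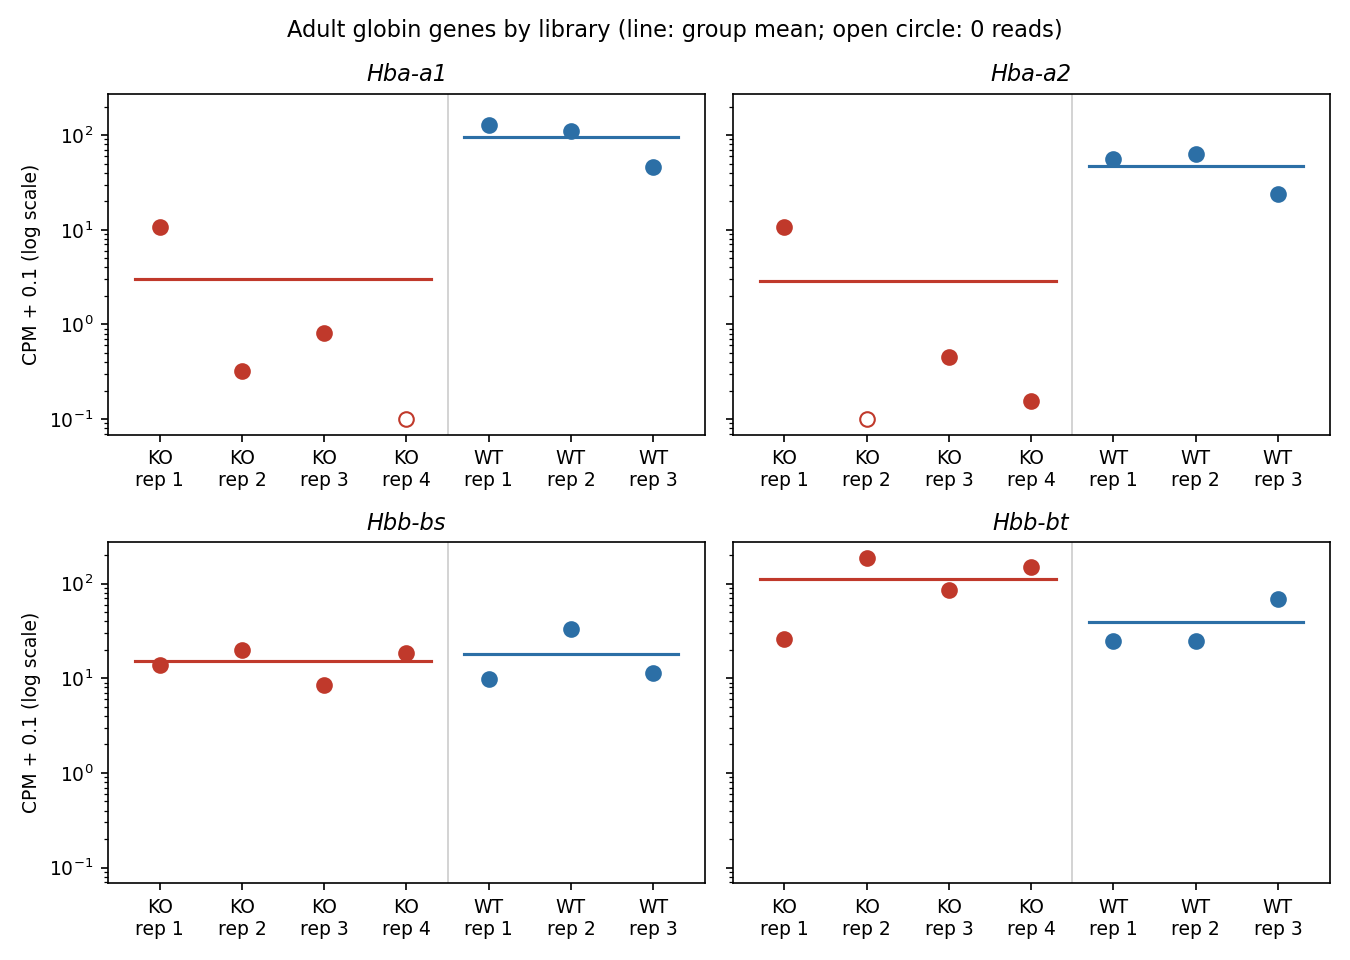
CPM plus 0.1 on a log axis for each adult globin gene in the 4 libraries labelled KO (red) and the 3 WT libraries (blue); lines are group means and open circles mark 0 reads. All KO points lie below all WT points for Hba-a1 and Hba-a2, with KO replicate 1 between, while the groups overlap for Hbb-bs and Hbb-bt.

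The size of the alpha difference was large and its error wide. With edgeR's quasi-likelihood test and Benjamini-Hochberg adjustment over all 14695 genes tested, the alpha sum had a log2 fold change of -4.68 (SE 1.29, 95% interval -7.53 to -1.82, adjusted p = 0.107), a level 25.6-fold lower in libraries labelled KO. Hba-a1 had a log2 fold change of -5.06 (SE 1.21, interval -7.73 to -2.39, edgeR adjusted p = 0.0622), and Hba-a2 of -4.14 (SE 1.30, interval -7.01 to -1.27, edgeR adjusted p = 0.159). None of the 4 adult globins passed an adjusted p of 0.05 in edgeR, where 2.26% of all genes tested did (1.66% lower and 0.599% higher). At an unadjusted p below 0.05 in edgeR, 1 adult globin was higher, beside 7.42% of all genes tested, and 2 were lower, beside 7.21%. DESeq2 called 0 of the 4, where it called 3.5% of all genes lower and 2.4% higher. The voom method of limma with quality weights called both alpha genes lower, where it called 2.99% of all genes lower and 1.83% higher. In 2 of the 4, the alpha genes, the groups did not overlap and KO was lower, as was true of 7.45% of all genes tested, while 8.23% were separated with KO higher. The 2 alpha genes share reads, so in all these counts they are not separate observations.

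The alpha estimates moved most when KO replicate 1 was left out. Without it, the log2 fold change was -8.41 for the alpha sum (edgeR adjusted p = 0.000312), -8.38 for Hba-a1 (edgeR adjusted p = 0.00033) and -8.45 for Hba-a2 (edgeR adjusted p = 0.000285). With that library kept, Hba-a1 passed in edgeR without KO replicate 4 (log2 fold change -4.61, adjusted p = 0.0434), with no filter on low counts (adjusted p = 0.0173) and with a stricter filter (adjusted p = 0.0461). It also passed in edgeR with Y-linked expression as a covariate (adjusted p = 0.0139) and with the replicate number as a block (adjusted p = 0.0101). The alpha sum passed in edgeR with no filter (adjusted p = 0.0435), with that covariate (adjusted p = 0.029) and with that block (adjusted p = 0.0242). Replicate numbers did not pair the libraries, as given below. Hba-a2 passed in edgeR only without KO replicate 1. Over all alternatives tried, the edgeR, DESeq2 or voom adjusted p of the alpha sum ran between 0.000312 and 0.245, and its direction stayed the same. An exact two-sided permutation test of the alpha sum on the log2(CPM + 0.1) scale gave a difference of -6.96 and p = 0.0571, the smallest p that 4 against 3 libraries allow (adjusted p = 0.171 over the 3 sums tested).

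**Figure D2:**
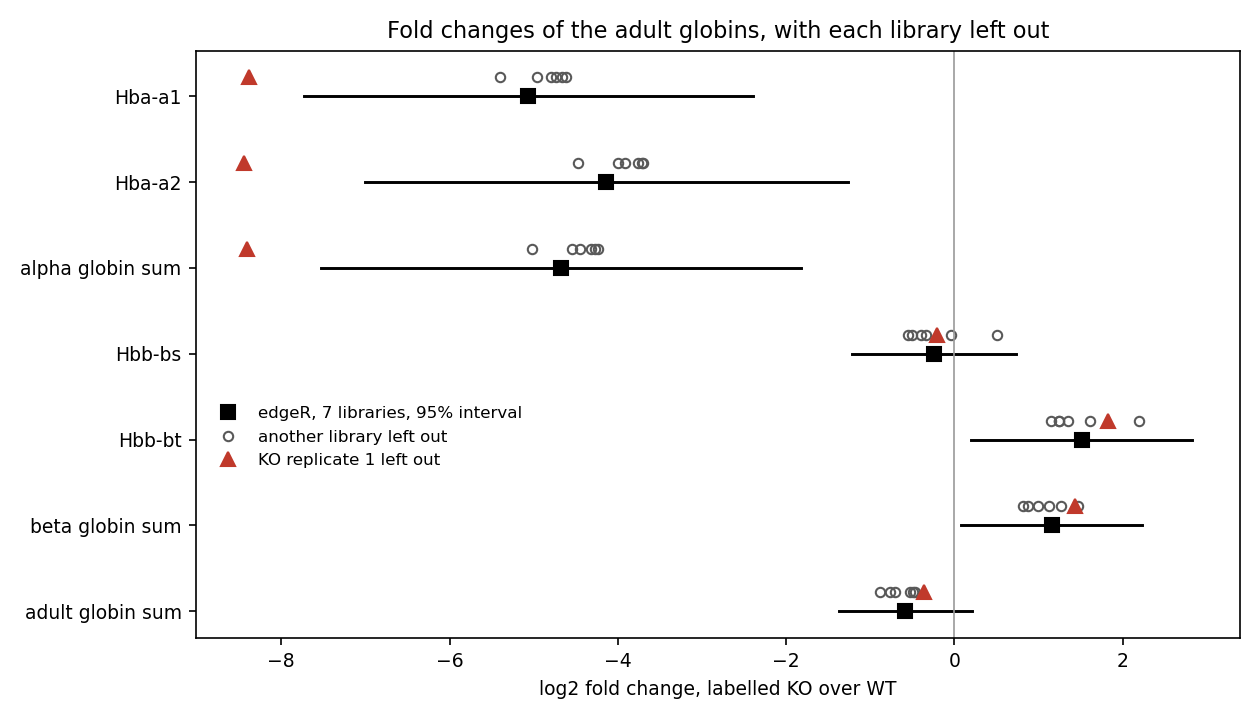
Log2 fold change, labelled KO over WT, for each adult globin and each sum, as the edgeR estimate with its 95% interval (squares and bars) and with each library left out in turn (circles; red triangles leave out KO replicate 1). Leaving out KO replicate 1 moves the alpha sum to -8.41 while the beta sum moves to 1.44.

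Beta globin RNA did not follow alpha globin RNA. Hbb-bt (ENSMUSG00000073940, chromosome 7, 103812524 to 103813996, minus strand), the gene with most of the beta reads in 6 of 7 libraries, had 25.9, 188, 86.1 and 149 CPM in KO replicates 1 to 4, against 24.5, 24.4 and 69.4 CPM in WT replicates 1 to 3. Its KO replicates 2 to 4 lay above all WT libraries, but KO replicate 1 lay among them, so the groups overlapped. On the log2 scale it differed by 1.51 (SE 0.59, interval 0.20 to 2.83, edgeR adjusted p = 0.275), and with each library left out by 1.15 (without KO replicate 2, edgeR adjusted p = 0.496) to 2.19 (without WT replicate 3, edgeR adjusted p = 0.169). Without KO replicate 1 it differed by 1.82 (edgeR adjusted p = 0.0706).

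Hbb-bs (ENSMUSG00000052305, chromosome 7, 103826534 to 103828096, minus strand) showed no separation. It had 13.7, 19.8, 8.33 and 18.6 CPM in KO replicates 1 to 4, against 9.75, 32.9 and 11.1 CPM in WT replicates 1 to 3. The highest library was WT replicate 2 and the lowest KO replicate 3. Its log2 fold change was -0.24 (SE 0.44, interval -1.21 to 0.73, edgeR adjusted p = 0.824), and its sign changed under some alternatives, including 0.51 without WT replicate 2.

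The beta sum had 39.7, 208, 94.5 and 168 CPM in KO replicates 1 to 4, against 34.2, 57.2 and 80.5 CPM in WT replicates 1 to 3. Again KO replicate 1 lay within the WT range and the other KO libraries above it. The beta sum had a log2 fold change of 1.15 (SE 0.48, interval 0.08 to 2.23, edgeR adjusted p = 0.307), and 1.44 without KO replicate 1 (edgeR adjusted p = 0.0782). With each library left out it ran from 0.81 (without KO replicate 2, edgeR adjusted p = 0.542) to 1.47 (without WT replicate 3, edgeR adjusted p = 0.282). In an exact two-sided permutation test it differed by 0.98 on the log2(CPM + 0.1) scale (p = 0.229, adjusted p = 0.286 over the 3 sums). The sum of all 4 adult globins had 60.9, 208, 95.5 and 168 CPM in KO replicates 1 to 4, against 219, 230.1 and 151 CPM in WT replicates 1 to 3. These groups overlapped, with a log2 fold change of -0.59 (SE 0.36, interval -1.37 to 0.20, edgeR adjusted p = 0.485).

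The balance between alpha and beta RNA separated the groups. Compared per length as TPM (the deposited, length-corrected abundance, summed over transcripts), alpha RNA stood at 0.728, 0.00103, 0.0125 and 0.000444 times beta RNA in KO replicates 1 to 4, against 7.72, 4.10 and 1.20 times in WT replicates 1 to 3. By TPM, beta RNA was thus the more abundant in all 4 libraries labelled KO and alpha RNA in all 3 WT libraries. KO replicate 1 and WT replicate 3 were nearest to balance. In WT replicate 3 alpha stood at 208 TPM and beta at 173 TPM. Retained-intron transcripts held 97.3 TPM of that alpha (Hba-a1) and 35.4 TPM of that beta (Hbb-bs). Counted as reads, beta was the more abundant in WT replicate 3, at 1868 estimated reads against 1631 for alpha. The difference in the log2 ratio, with 0.1 added to each TPM, was -8.47 (exact two-sided permutation p = 0.0571, the smallest possible). Without KO replicate 1 it was -10.56 (exact permutation p = 0.1, the smallest possible with 3 against 3). This ratio was added after the values had been seen.

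Counted as reads, alpha made up 34.9% of adult globin reads in KO replicate 1 (Wilson 95% interval 32.6 to 37.3), 0.106% in KO replicate 2 (0.049 to 0.232), 1.11% in KO replicate 3 (0.774 to 1.59) and 0.032% in KO replicate 4 (0.009 to 0.117). It made up 84.3% in WT replicate 1 (83.4 to 85.2), 75.1% in WT replicate 2 (73.9 to 76.3) and 46.6% in WT replicate 3 (45.0 to 48.3). The share was lower in every KO library than in every WT library. The intervals cover counting error within a library and not the spread between libraries.

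**Figure D3:**
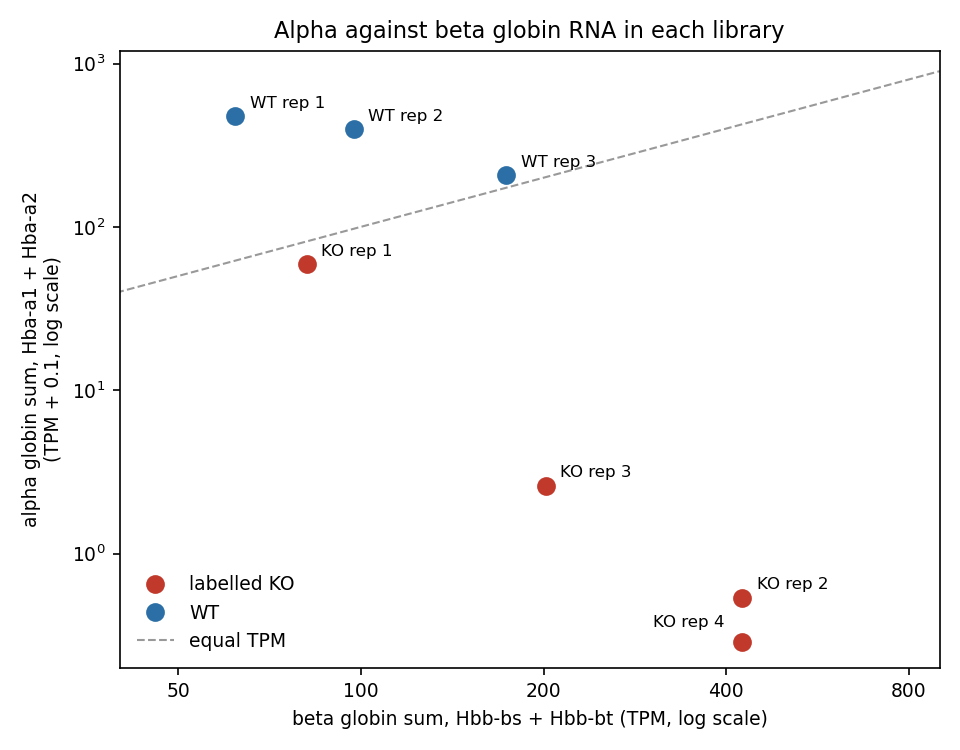
Alpha globin TPM plus 0.1 against beta globin TPM, both on log axes, with 1 point per library and a dashed line where both are equal. The 3 WT libraries lie above the line at ratios from 1.20 to 7.72, KO replicate 1 lies just below it at 0.728, and the other 3 KO libraries lie far below.

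By rank of TPM among genes, the alpha sum took places 2365, 13625, 10544 and 15093 in KO replicates 1 to 4, against places 385, 452 and 906 in WT replicates 1 to 3. The beta sum took places 1870, 441, 915 and 415 in KO replicates 1 to 4, against 2346, 1376 and 1074 in WT replicates 1 to 3. Globin RNA was a minor part of every library.

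Single transcripts showed where the estimated reads were placed. The coding transcript of Hba-a1 held 141, 6, 19.4 and 0 estimated reads in KO replicates 1 to 4, against 1797, 1044 and 442 in WT replicates 1 to 3. The retained-intron transcript of Hba-a1 held 133, 0, 0 and 0 estimated reads in KO replicates 1 to 4, against 1968, 1315 and 634 in WT replicates 1 to 3. It has no 31-base word of its own within the family, and the retained-intron transcript of Hba-a2 received 0 reads in all libraries. The coding transcript of Hba-a2 held 271, 0, 9.61 and 2 estimated reads in KO replicates 1 to 4, against 1662, 1331 and 555 in WT replicates 1 to 3. All alpha transcripts that received reads were thus lower in every library labelled KO.

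The share of Hba-a1 in alpha reads was 50.3% in KO replicate 1 and 65.5% in KO replicate 3, against 69.4%, 63.9% and 66.0% in WT replicates 1 to 3. KO replicates 2 and 4 held 6 and 2 alpha reads, too few for a share. Estimated reads were thus assigned to both alpha copies in KO replicates 1 and 3 and in every WT library. As the main coding transcript of Hba-a2 shares 91.0% of its 31-base words with Hba-a1, this division does not show that both copies were expressed.

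The beta transcripts were divided less evenly. The single transcript of Hbb-bt took 65.5%, 90.5%, 91.2% and 88.9% of beta reads in KO replicates 1 to 4, against 71.5%, 42.6% and 86.2% in WT replicates 1 to 3. Within Hbb-bs, the main coding transcript held 298, 76.2, 38.3 and 141 estimated reads in KO replicates 1 to 4, against 287, 654 and 101 in WT replicates 1 to 3. The retained-intron transcript of Hbb-bs, 344 bases long, held 53.5, 459, 189 and 548 estimated reads in KO replicates 1 to 4, against 0, 33.1 and 158 in WT replicates 1 to 3. It made up 15.1%, 85.8%, 82.9% and 79.5% of Hbb-bs reads in KO replicates 1 to 4, against 0%, 4.70% and 61.2% in WT replicates 1 to 3, where 0 of 287 reads in WT replicate 1 has a Wilson upper bound of 1.32%. KO replicate 1 and WT replicates 1 and 2, the libraries with least Hbb-bt, thus had mostly coding Hbb-bs, and the other 4 mostly the retained-intron form.

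Counting only coding transcripts, an alternative chosen after seeing the data, moved Hbb-bs to a log2 fold change of -1.63 (edgeR adjusted p = 0.342). As background, 129 and C57BL/6 mice are known to carry different beta globin haplotypes. The reference holds the Hbb-bs and Hbb-bt copies, and the part of haplotype in this division of reads was not tested.

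**Figure D4:**
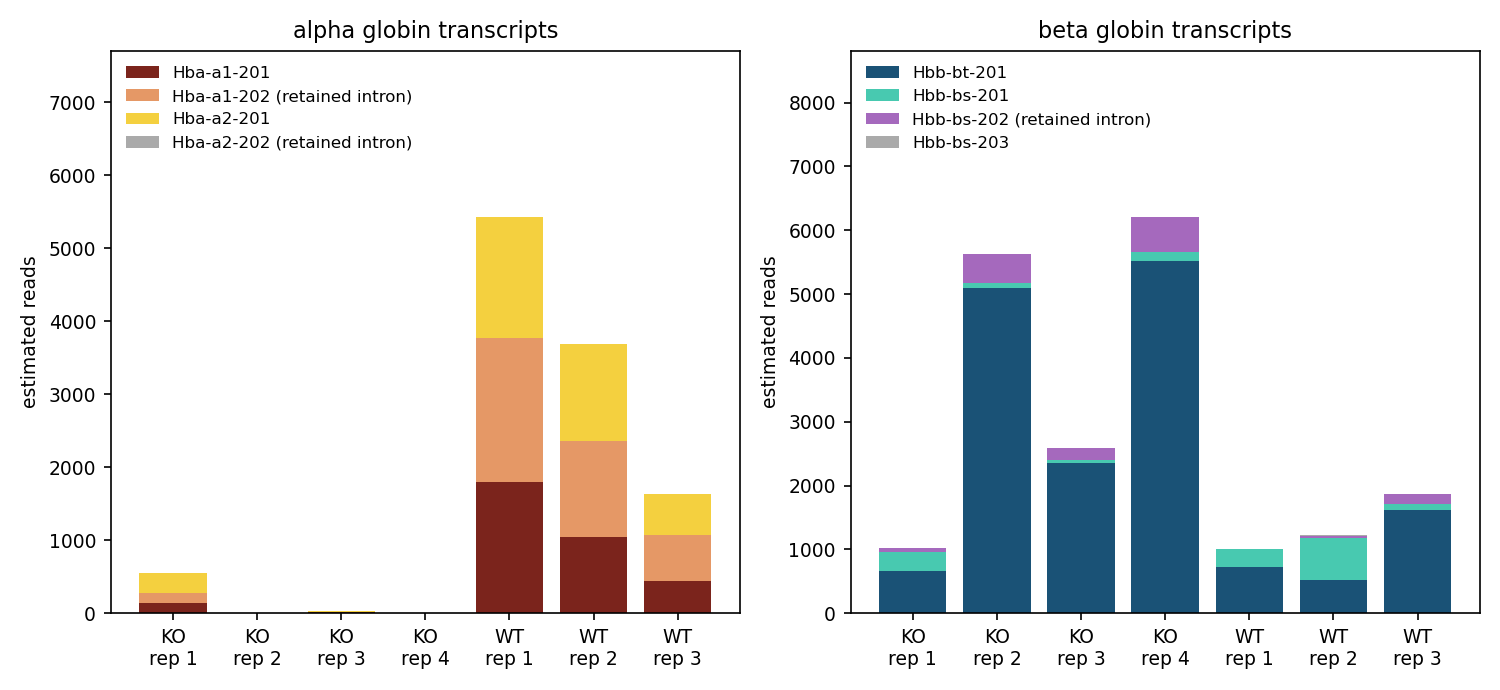
Estimated reads per transcript (stacked bars) of the alpha globins (left) and beta globins (right) in each library. Alpha bars reach 5427 reads in WT and 545 at most in KO, and most of each beta bar belongs to Hbb-bt except in WT replicate 2, where the main coding transcript of Hbb-bs leads.

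The other globins of both clusters were almost silent. The embryonic alpha-like gene Hba-x held 0 reads in all libraries labelled KO and 6, 0 and 7 in WT replicates 1 to 3. The embryonic beta-like gene Hbb-y held 8 reads in KO replicate 2 and 0 in the other 6 libraries, and Hbb-bh2 held 1 read, in WT replicate 2. The theta gene Hbq1b, which lies between Hba-a1 and Hba-a2, held 2 reads in KO replicate 3 and 0 in the other KO libraries, against 23, 6 and 3 in WT replicates 1 to 3. Hbb-bh0, Hbb-bh1 and Hbq1a held 0 reads in all 7 libraries. None of these 7 genes passed the filter on low counts, so none was tested. Nearly all globin reads in these libraries were thus assigned to the adult genes.

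The genes around the alpha cluster on chromosome 11 were measured beside it. All 8 neighbours tested had a log2 fold change below 0, with a median of -0.34, while the median over all genes tested was 0.03. None passed the edgeR test (unadjusted p below 0.05 in 0 higher and 1 lower), nor did any in DESeq2 or voom. Nprl3, whose introns hold the main alpha globin enhancers, had 20.4, 24.6, 21.6 and 17.9 CPM in KO replicates 1 to 4, against 32.4, 22.5 and 27.8 CPM in WT replicates 1 to 3. Its groups overlapped (log2 fold change -0.38, SE 0.20, edgeR adjusted p = 0.420), and its sign turned, to 0.25, with an offset for transcript length. Rhbdf1, an inactive rhomboid protease, averaged 2.60 ± 0.814 CPM in libraries labelled KO (SD, n = 4) and 5.20 ± 1.77 CPM in WT libraries (SD, n = 3; edgeR adjusted p = 0.279). Snrnp25, a component of the minor spliceosome, had a log2 fold change of -0.40 (edgeR adjusted p = 0.469), and Il9r, a cytokine receptor gene, one of -1.37 (edgeR adjusted p = 0.470). The differences at the neighbours were thus small beside those at Hba-a1 and Hba-a2; the difference between them was not tested.

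None of the regulators of globin transcription passed with all libraries in edgeR without covariates, though Klf1 did with the replicate number as a block. Of 14 listed, 13 were tested and none passed in edgeR (unadjusted p below 0.05 in 1 higher and 1 lower) or in DESeq2 or voom, with a median log2 fold change of 0.00. Klf1, the factor that activates the adult beta globin promoter, had 75.7, 40.5, 33.1 and 35.7 CPM in KO replicates 1 to 4, against 41.5, 8.57 and 7.55 CPM in WT replicates 1 to 3. WT replicate 1 lay among the KO libraries, and the fold change on the log2 scale was 1.26 (SE 0.56; adjusted p = 0.336 in edgeR), or 2.51 without WT replicate 1 (edgeR adjusted p = 0.0148, range over its alternatives 0.0148 to 0.640). Gata1, the main erythroid GATA factor, had a log2 fold change of 0.40 (edgeR adjusted p = 0.515). Tal1, its partner at erythroid enhancers, had one of -0.51 (edgeR adjusted p = 0.358), and Lmo2, which joins them in a complex, one of -0.30 (edgeR adjusted p = 0.337).

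Genes of haem synthesis and iron supply, which provide the group that globin binds, gave no call either. None of 15 tested passed in edgeR (unadjusted p below 0.05 in 1 higher and 3 lower), with a median log2 fold change of 0.15. DESeq2 called 0 higher and 1 lower, and voom called 1 higher and 1 lower. The ferritin light chain gene Ftl1 had 2659, 2603, 2534 and 1652 CPM in KO replicates 1 to 4, against 4411, 4093 and 3471 CPM in WT replicates 1 to 3. All its KO libraries lay below all WT libraries (log2 fold change -0.76, SE 0.19, edgeR adjusted p = 0.0765, range over its alternatives 0.00517 to 0.251), and it passed without KO replicate 4 (edgeR adjusted p = 0.0457). The ferritin heavy chain gene Fth1 had a log2 fold change of -0.45 (edgeR adjusted p = 0.262), the transferrin receptor gene Tfrc one of 0.75 (edgeR adjusted p = 0.218), and Slc25a37, the mitochondrial iron importer, one of -0.51 (edgeR adjusted p = 0.279).

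Among genes of the red cell membrane and late red cells, 2 of 21 tested fell and none rose in edgeR, with a median log2 fold change of 0.20. Of all genes tested, edgeR called 1.66% lower and 0.599% higher. At an unadjusted p below 0.05 in edgeR, 1 of the list was higher and 2 were lower. DESeq2 and voom each called 2 lower and 0 higher. The 2 that fell in edgeR were Mkrn1 and Sptb. Mkrn1, a RING-type ubiquitin ligase, averaged 94.2 ± 5.10 CPM in libraries labelled KO (SD, n = 4) and 195 ± 27.0 CPM in WT libraries (SD, n = 3; log2 fold change -1.05, SE 0.15, edgeR adjusted p = 0.0039). Sptb, the beta spectrin of the red cell skeleton, averaged 1.38 ± 0.920 CPM in libraries labelled KO (SD, n = 4) and 8.03 ± 3.14 CPM in WT libraries (SD, n = 3; log2 fold change -2.54, SE 0.54, edgeR adjusted p = 0.0393). The Sptb call was lost without KO replicate 2 (edgeR adjusted p = 0.099), KO replicate 3 (edgeR adjusted p = 0.108), WT replicate 1 (edgeR adjusted p = 0.111) or WT replicate 2 (edgeR adjusted p = 0.137). Rhag, of the Rhesus complex, had a log2 fold change of 1.12 (edgeR adjusted p = 0.323), and Epb41, a skeletal protein of the red cell membrane, one of -0.40 (edgeR adjusted p = 0.411).

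The defining red cell membrane gene Slc4a1, encoding the anion exchanger band 3, held 0 reads in all 7 libraries. Summed over the list, KO libraries held 2493 to 4581 CPM and WT libraries 2752 to 4628 CPM, so the groups overlapped. Car1, carbonic anhydrase 1, had 1462, 219.7, 260.3 and 36.2 CPM in KO replicates 1 to 4, against 808, 72.8 and 9.36 CPM in WT replicates 1 to 3. Ermap, an erythroid membrane protein, had 44.2, 4.57, 1.71 and 1.21 CPM in KO replicates 1 to 4, against 12.7, 3.13 and 0.273 CPM in WT replicates 1 to 3. KO replicate 1 was the highest library for both of these genes and WT replicate 1 the second highest, whereas in alpha globin KO replicate 1 lay below every WT library. Car1 and Ermap were named after their values had been seen.

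**Figure D5:**
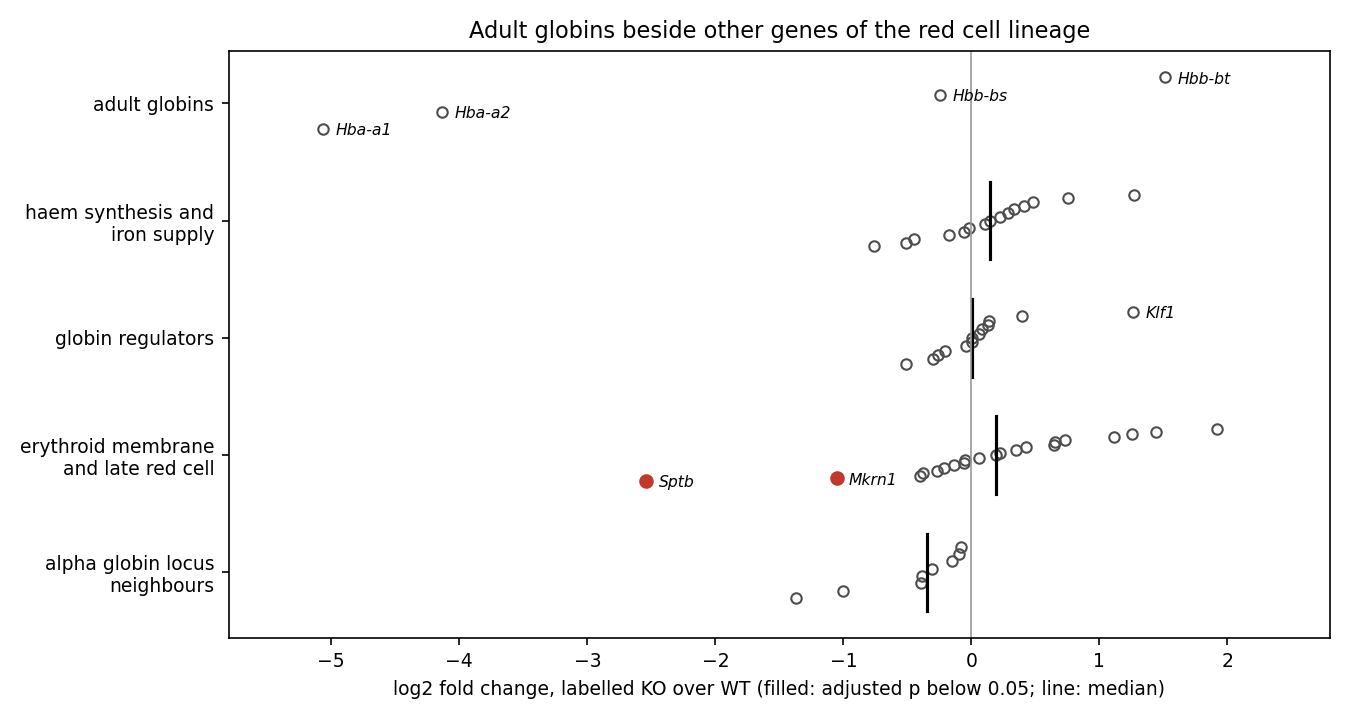
Log2 fold change, labelled KO over WT, of each tested gene in 5 groups: adult globins, haem synthesis and iron supply, globin regulators, erythroid membrane and late red cell genes, and alpha locus neighbours. Filled points passed an edgeR adjusted p of 0.05, and vertical lines mark the medians of the 4 lists other than the adult globins, which run from -0.34 to 0.20.

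Markers of other cell types were set beside the alpha difference. Of all genes tested, edgeR called 1.66% lower and 0.599% higher. DESeq2 called 3.5% lower and 2.4% higher, and voom 2.99% lower and 1.83% higher. At an unadjusted p below 0.05 in edgeR, 7.21% were lower and 7.42% higher. Of 16 megakaryocyte and platelet genes tested, 13 fell and none rose in edgeR (unadjusted p below 0.05 in 0 higher and 16 lower), with a median log2 fold change of -2.20 and summed levels of 1380 to 2224 CPM in libraries labelled KO, against 6126 to 13082 CPM in WT libraries. Like alpha globin, these markers were highest among the KO libraries in replicate 1, and lowest among the WT libraries in replicate 3. Their part in the alpha globin difference was not tested. Of 9 neutrophil genes tested, 1 fell in edgeR, S100a9, and none rose, with unadjusted p below 0.05 in 3 higher and 4 lower. The 3 higher were the granule genes Mpo (log2 fold change 2.48, edgeR adjusted p = 0.0509) and Prtn3 (0.72, edgeR adjusted p = 0.135) and the chemokine receptor gene Cxcr2 (1.07, edgeR adjusted p = 0.111). The 4 lower were S100a9, S100a8 (log2 fold change -2.55, edgeR adjusted p = 0.0666), Ngp (-3.72, edgeR adjusted p = 0.0922) and Camp (-2.83, edgeR adjusted p = 0.171). DESeq2 called 3 neutrophil genes higher and 3 lower, and voom 2 higher and 4 lower. The summed level of the neutrophil list was 114 to 217 CPM in libraries labelled KO and 94.0 to 106 CPM in WT libraries, without overlap. Prtn3 made up most of it, at 80.8 to 147 CPM in KO and 64.7 to 83.3 CPM in WT libraries, so the sum does not speak for the 4 lower genes. Its part in the globin differences was not tested. Of 7 macrophage genes tested, 1 fell, Hmox1. No tested gene of the B cell (6 tested), T and NK cell (6) or stromal and endothelial (5) lists passed in edgeR. At an unadjusted p below 0.05 these gave 0, 2 and 1 genes, and DESeq2 and voom each called 1 gene, of the stromal list. Of the 12 LT-HSC sort and identity genes, Cd48 rose (log2 fold change 2.40, edgeR adjusted p = 0.000804) and Mllt3, a stem cell chromatin reader, fell (log2 fold change -1.15, edgeR adjusted p = 0.0128). Over these 12 the median log2 fold change was -0.41, with 3 above 0 and 9 below. At an unadjusted p below 0.05 in edgeR, 1 was higher and 4 were lower. DESeq2 called 1 higher and 3 lower, and voom 1 higher and 2 lower. The edgeR call was lost for S100a9 without any 1 library other than WT replicate 1 (edgeR adjusted p between 0.0624 and 0.163), and for Hmox1 without any 1 library other than WT replicate 2 (edgeR adjusted p between 0.0706 and 0.166). It was lost for Mllt3 without KO replicate 2 (edgeR adjusted p = 0.0516) or WT replicate 3 (edgeR adjusted p = 0.0533). Without a filter on low counts the Hmox1 call was lost too (edgeR adjusted p = 0.0536). S100a9, S100a8, Ngp, Camp, Mpo, Prtn3, Cxcr2, Hmox1, Cd48 and Mllt3 were named after their values had been seen.

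The genes most like the adult globin sum were found by Pearson r of log2 CPM among 11642 genes over the 7 libraries, as a description. The nearest were Lrfn1 (r = 0.948), D630039A03Rik (r = 0.928), Ubl4a (r = 0.925), Adpgk (r = 0.922) and Zfp968 (r = 0.921). With each group's mean removed, the nearest were Srr (r = 0.967), Il17re (r = 0.954), Krtcap3 (r = 0.944), Peg12 (r = 0.943) and E2f1 (r = 0.939). All values share the same 7 libraries. No gene of the red cell lists stood among the 10 nearest by either measure. With 10 taken from 11642 genes, such an absence was likely in any case and says little.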

How the data were processed

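The files hold 1 table per library. The tables were made by the authors with tools that include cutadapt and Salmon 0.11.2, on build mm10, per the submitters' processing notes. The authors deposited estimated counts per transcript, in which a read that fits several transcripts is shared out, so values can be fractional. TPM values and effective lengths were used as the authors deposited them, the lengths only for an offset. Strand was not recorded by the SMART-Seq kit named in the labels, so sense and antisense reads cannot be told apart.

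Transcripts were joined without version to GENCODE M21 of GRCm38. Of 112092 transcripts, 111787 matched and 305 did not. Estimated counts were summed to 34932 genes and rounded. The groups were compared in edgeR 4.0.16 (R 4.3.3) with the quasi-likelihood test, TMM scaling, filterByExpr and Benjamini-Hochberg adjustment over all 14695 genes tested, at an adjusted p below 0.05. For each sum, the members were replaced by 1 summed gene and the fit repeated. Standard errors, 95% intervals and CPM come from this fit. The steps were tested on simulated data, in which edgeR called 51% of 100 genes changed 2-fold and 88% of 100 changed 4-fold. It also called 6 of 14172 unchanged genes. The simulated spread followed the trend over all genes and not the spread of the globins, so these rates do not speak for them.

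Members, gene lists and tests were chosen with earlier results of these data known. Named genes are the 4 adult globins, B4galt1, the other globins, up to 4 tested genes of smallest p from each of the red cell lists and alpha neighbours, and the genes most like the adult globin sum. Among the listed genes, Ahsp and Fam46c were not analysed here, and some others are not reported here and were left out of their list's counts. The alternatives tried were scaling by RLE or upper quartile, no filter, a stricter filter (1 CPM in 3 libraries and 50 reads), DESeq2 1.42.0, limma 3.58.1 voom with quality weights, a length offset, the replicate number as a block, Y-linked expression as a covariate, a pseudocount of 1, and each library left out. Coding transcripts only and the alpha to beta ratio were added after seeing the data.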

Additional observations from a re-analysis of the deposited data

Results flagged for a closer look

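Dixon's criterion was applied to 31 quantities across the 4 KO libraries, and 8 of these had a single distant library. Chance alone gives about 1 in 20 for separate quantities chosen beforehand. Car1, Ermap and the alpha to beta ratio were added after their values had been seen, and some quantities share reads. The count of 8 therefore cannot be set against that rate. The WT group, of 3, was not examined. KO replicate 1 stood apart at the high end in 7 of the 8. In the alpha globins it had 10.7 CPM of Hba-a1 (0 to 0.709 CPM in the other KO libraries), 10.57 CPM of Hba-a2 (0 to 0.351 CPM) and 21.27 CPM of the alpha sum (0.054 to 1.06 CPM). Its alpha to beta TPM ratio was 0.7276, against 0.0004 to 0.0124 in the other KO libraries. These 4 values share reads and are not separate observations.

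Among red cell genes outside the globins, Car1 and Ermap stood apart in the same library. KO replicate 1 had 1462 CPM of Car1 (36.2 to 260.3 CPM in the other KO libraries) and 44.16 CPM of Ermap (1.21 to 4.57 CPM). The rest of the red cell list was mixed. Among the KO libraries, Rhd was also highest in replicate 1, at 28.9 CPM, whereas Gypc was lowest there, at 101 CPM. KO replicate 1 also had the highest B4galt1 level of the KO libraries, 19.32 CPM, beside 14.6 to 14.9 CPM in the others. The remaining value was Ftl1, lowest in KO replicate 4 at 1652 CPM, beside 2534 to 2659 CPM in the other KO libraries. What sets KO replicate 1 apart was not tested.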

How the results depend on the processing

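The alpha sum, Hba-a1 and Hba-a2 stayed lower in libraries labelled KO under all 17 alternatives, and the beta sum (0.81 to 1.47 with each library left out) and Hbb-bt (1.15 to 2.19) stayed higher without passing. The alpha sum passed without a filter (log2 fold change -4.69), in voom (-7.14), with the replicate block (-5.68) and with Y-linked expression as a covariate (-5.31). Hba-a1 passed without a filter (-5.08), with the stricter filter (-5.06), in voom (-7.15), with the replicate block (-5.68) and with the Y-linked covariate (-5.61), and Hba-a2 in voom (-7.59). With each library left out, values ran from -8.41 to -4.23 for the alpha sum, from -8.38 to -4.61 for Hba-a1 and from -8.45 to -3.70 for Hba-a2.

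Hbb-bs reversed in voom (0.12), with the length offset (0.30) and without WT replicate 2 (0.51), within a leave-one-out range of -0.55 to 0.51. B4galt1 reversed without WT replicate 2 (0.037, leave-one-out range -0.47 to 0.037) and Nprl3 with the length offset (0.25). Car1 (-0.80, range -0.80 to 3.59) and Ermap (-1.12, range -1.12 to 2.92) reversed without KO replicate 1. The causes were not tested.

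Genes past the threshold numbered 332, against 866 in DESeq2, 708 in voom, 614 with the Y-linked covariate, 240 with the block and 195 to 409 with a library left out. The share that rose was 26.5%, against 40.6% in DESeq2, 38.0% in voom and 46.0% with the length offset, and between 15.2% (without KO replicate 3) and 31.8% (without KO replicate 4) with a library left out. Replicate numbers did not pair the libraries: deviations of same-numbered libraries correlated at -0.053, -0.12 and -0.039, and KO replicate 4 has no partner. With the block, Klf1 passed (1.74, edgeR adjusted p = 0.0269), and S100a9 (edgeR adjusted p = 0.134) and Hmox1 (edgeR adjusted p = 0.206) did not. At 4 against 3 libraries no permutation p can fall below 0.0571, and 6 or fewer alpha reads in KO replicates 2 and 4 leave their alpha levels near the floor.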

Other observations

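With the alpha and beta sums taken singly, a choice made after the values had been seen, different genes were nearest among the 11642 compared over 7 libraries. Nearest to the alpha sum by Pearson r of log2 CPM were Phlpp1 (r = 0.986), Arhgef12 (r = 0.983) and Yod1 (r = 0.972). Phlpp1 had 6.26, 3.07, 4.39 and 2.81 CPM in KO replicates 1 to 4, against 10.9, 10.2 and 10.6 CPM in WT replicates 1 to 3. With group means removed, Megf9 (r = 0.994), Bcl9l (r = 0.984) and Dach1 (r = 0.981) were nearest. Nearest to the beta sum were Pcbp4 (r = 0.980), Zfp808 (r = 0.973) and Tedc2 (r = 0.963), and with group means removed Otud6b (r = 0.989), Lzic (r = 0.986) and Jdp2 (r = 0.981). These are descriptions over shared libraries, with no test.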
